A study of Mus musculus with 27 samples.

Results

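Melanopsin (Opn4) and the genes around it were followed through the development of the mouse retina. The set held 5 genes, found by their symbols among the 38168 features of the deposited table, and each symbol had a single entry. They were the non-visual opsins Opn4, Opn3 and Opn5, the T-box transcription factor gene Eomes (also called Tbr2), and Adcyap1, which encodes the neuropeptide PACAP. Whole retinas of wild type C57BL/6J mice were profiled by RNA-seq at embryonic days 14 and 17 (E14 and E17, 3 libraries each) and postnatal days 1 (P1, 4 libraries), 6 (P6, 3), 15 (P15, 4), 28 (P28, 4) and 60 (P60, 6), 27 libraries in all. Libraries were made from pooled retinas, except that by the methods 4 of the P60 libraries came from single mice and 2 from pools, while the labels give 3 per library throughout. Which P60 libraries are which is not given, so the SD at P60 (n = 6) mixes both kinds. The tissue was taken in the light phase of the day. Postnatal mice were males from P6 on, whereas embryos and P1 neonates were of mixed sex, so that age and the mix of sexes cannot be told apart between these stages.

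Melanopsin is the photopigment of the intrinsically photosensitive retinal ganglion cells, which respond to light without rods or cones and carry signals for the circadian clock, the pupil reflex and sleep. Eomes is needed for these cells to form and is kept on in them, and PACAP is released by their axons in the brain alongside glutamate. Opn3 (encephalopsin) and Opn5 (neuropsin, sensitive to ultraviolet and violet light) are opsins outside the rod and cone system, and Opn5 is also known from a small group of ganglion cells. All opsins hold a retinal chromophore on a lysine of the last membrane-spanning helix.

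The sequences coding for this chromophore site are shown because they are what makes all 3 genes opsins. Each is a stretch of 42 bases in the sense of the transcript, 5′ to 3′, from the GRCm38 build and the GENCODE M21 annotation, with the lysine codon in capitals. The Opn4 stretch lies in exon 7 of 9 at chr14:34594790-34594831 on the minus strand and codes for lysine 337. The Opn3 stretch lies in exon 3 of 4 at chr1:175663545-175663586, minus strand, with lysine 297. The Opn5 stretch lies in exon 5 of 7 at chr17:42580627-42580668, minus strand, with lysine 296.
Opn4: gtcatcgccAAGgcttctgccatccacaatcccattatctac
Opn3: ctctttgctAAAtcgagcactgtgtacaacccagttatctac
Opn5: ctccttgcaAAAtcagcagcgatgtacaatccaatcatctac
Opn4 shared 24 of the 42 bases with Opn3 and 28 with Opn5. Opn3 and Opn5 shared 30, the most of the 3 pairs.

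Values are CPM, the reads of a feature scaled by the depth of its library, as deposited. The libraries were scaled to between 7077781 and 11332323 reads, so that 1 CPM stood for only 7 to 11 reads. A feature without reads could still hold up to 3 reads by chance, which corresponded to 0.265 to 0.424 CPM depending on the library. Eomes (2990 reads over all libraries) and Adcyap1 (1079 reads) stayed above that floor in every library. Opn3 (377 reads) was at or under 3 reads in 5 libraries, Opn4 (256 reads) in 6, and Opn5 (35 reads) in 25 of 27. Limma was used to test changes in log2(CPM + 1), with 31760 features that reached 1 CPM in at least 3 libraries, and p was adjusted over all of them. Eomes, Adcyap1, Opn3 and Opn4 passed this filter and Opn5 did not. All fold changes are on the log2(CPM + 1) scale, which understates changes at such low levels.

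**Figure D1:**
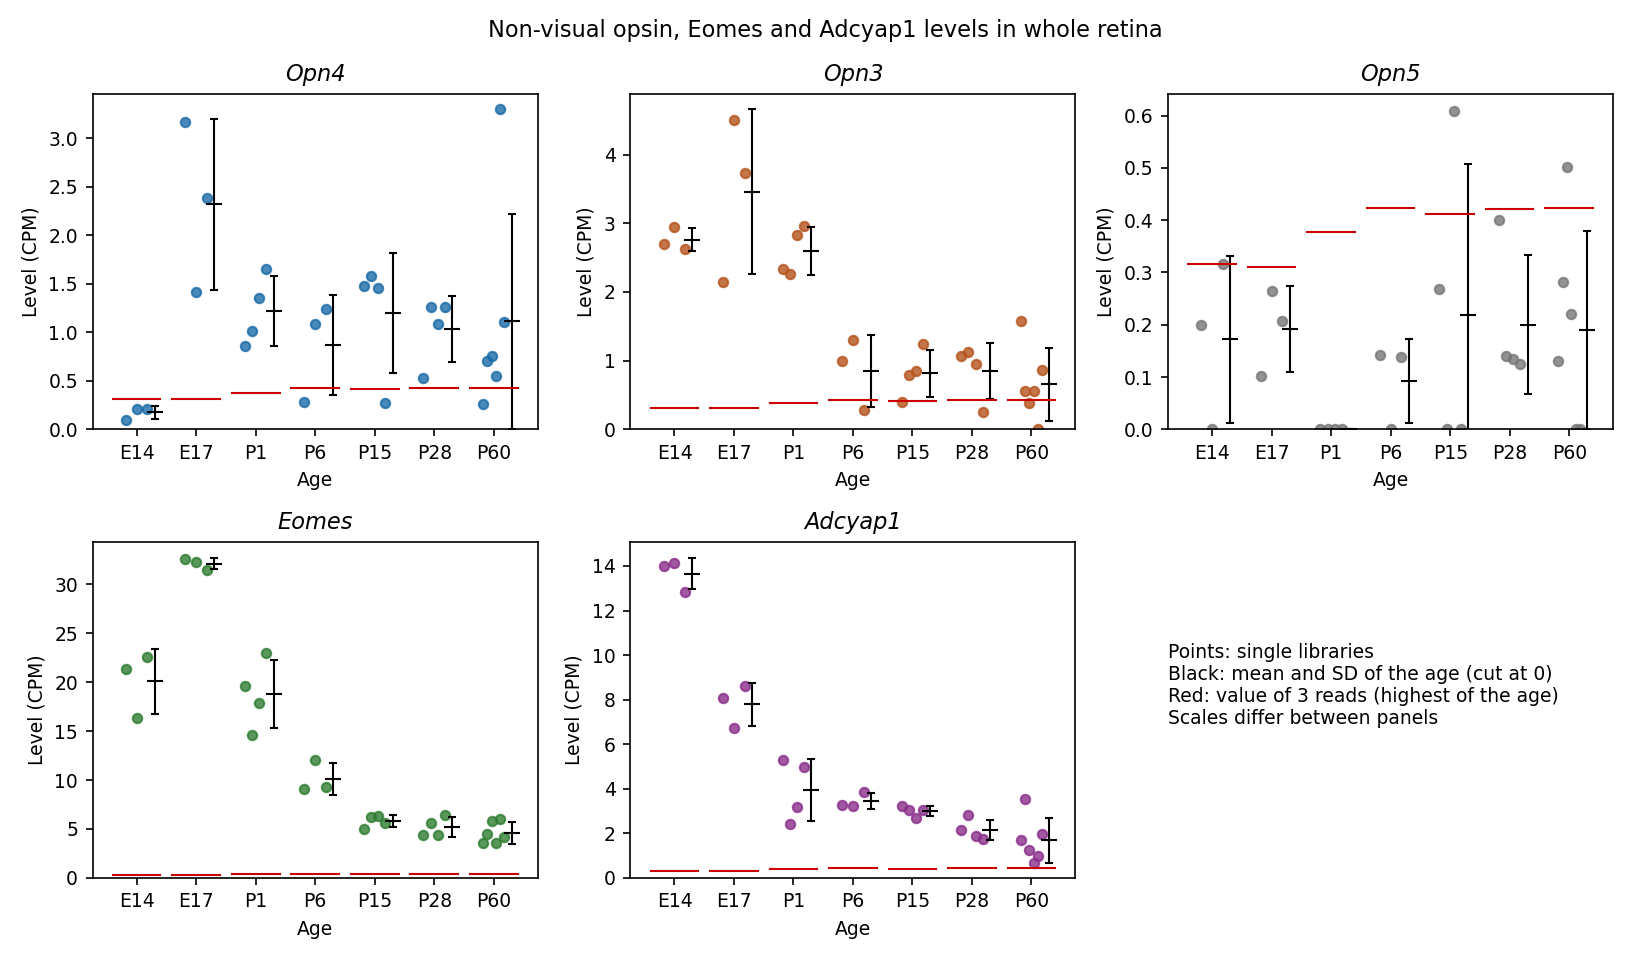
Levels of the 5 genes in CPM (y axis, from 0, on a scale of its own in each panel) at the 7 ages (x axis). Points are libraries, black marks are the mean and SD of an age, and red lines are the value of 3 reads. Opn4 sat at the floor at E14 and above it in every E17 library, Eomes was highest at E17, Adcyap1 at E14, and Opn5 stayed around the floor throughout.

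Opn4 appeared between E14 and E17. At E14 the 3 libraries held 0.10, 0.211 and 0.210 CPM, from 1, 2 and 2 reads. At E17 they held 3.17, 1.41 and 2.38 CPM, from 31, 16 and 23 reads. Every E17 library was above every E14 library, and all E14 libraries were under the floor. In summed reads this was 70 against 5, a ratio of CPM of 13.2 with a 95% interval of 5.39 to 41.9 that covers counting error only. The fitted log2 fold change was 1.47 (SE 0.32) with a limma adjusted p of 0.0014, and 10.6% of all tested features changed at this step.

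After E17, Opn4 varied around 1 CPM. The P1 libraries held 0.859, 1.01, 1.36 and 1.66 CPM, with a mean of 1.22 ± 0.36 (SD, n = 4). The P6 libraries held 0.283, 1.08 and 1.24 CPM. At P15 the values were 1.47, 1.58, 1.46 and 0.275 CPM. These ages overlapped, and the lowest P6 and P15 libraries held 2 reads each. At P28 the values were 0.533, 1.26, 1.08 and 1.26 CPM. Over the 6 libraries of P60 it ran from 0.262 to 3.30 CPM with a median of 0.728, and their highest value, 24 reads in replicate 5, was above every embryonic library. None of the 5 steps after E17 passed the test for Opn4, and at each of them the libraries of both ages overlapped. The largest of these, P1 against E17, had a log2 fold change of -0.56 (SE 0.30, limma adjusted p 0.31). Ordered by mean, E17 stood first (2.32 ± 0.88 CPM, SD, n = 3), followed by P1 (1.22), P15 (1.20), P60 (1.11), P28 (1.03), P6 (0.868) and E14 (0.174). Neighbours in this order overlapped up to P6, and only the last of them, E14, lay apart from its neighbour. The lowest P6 library held 2 reads, as did E14 replicates 2 and 3, so that gap reflects only the depth of the libraries. Over the 7 ages the level of Opn4 varied with a limma adjusted p of 0.0090, beside 83.0% of all tested features that varied.

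By the mean of an age, Opn4 was lowest and highest within the embryonic ages (E14 and E17). Set against them, the mature ages (P15, P28 and P60) showed no difference that passed the test. The mature mean was 1.11 CPM and the embryonic mean 1.25 CPM. The log2 fold change, which weights the ages equally on the log scale, pointed the other way at 0.05 (SE 0.19, limma adjusted p 0.82), and without P60 replicate 5 it was -0.026 (adjusted p 0.89). A gene on the opposite strand, Gm49012, overlaps Opn4 (chr14:34590618-34600142, minus strand) in the annotation. Gm49012 itself was not analysed here, and whether counting used the strand is not given in the sources used here, so reads of the 2 genes cannot be told apart.

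Eomes had the highest mean of the set per length at every age and peaked at E17. At E14 the libraries held 21.3, 16.4 and 22.6 CPM. At E17 they held 32.6, 32.3 and 31.5 CPM. All E17 libraries were above all E14 libraries, with a log2 fold change of 0.66 (SE 0.19, limma adjusted p 0.018). This call rests on single libraries, since the adjusted p was 0.15 without E14 replicate 2, 0.061 without E17 replicate 1 and 0.059 without E17 replicate 2.

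From E17 on, Eomes fell at 3 steps in a row. The P1 libraries held 19.6, 14.6, 17.9 and 22.9 CPM, all below E17 (log2 fold change -0.76, SE 0.18, limma adjusted p 0.0038), at a step where 9.21% of all tested features changed. The P6 libraries held 9.04, 12.0 and 9.24 CPM, all below P1 (-0.83, SE 0.18, limma adjusted p 3.2e-04), at a step where 38.3% of features changed. The P15 libraries held 4.95, 6.19, 6.33 and 5.64 CPM, all below P6 (-0.71, SE 0.18, limma adjusted p 0.0022), at a step where 33.4% of features changed. Each of these steps separated the libraries without overlap. The level then stayed at 4.4, 5.62, 4.33 and 6.41 CPM at P28 and at 3.54 to 6.04 CPM, median 4.34, at P60, and neither step passed the test. The order of the means was E17 (32.1), E14 (20.1), P1 (18.8), P6 (10.1), P15 (5.78), P28 (5.19) and P60 (4.59), and E14 and P1 overlapped, as did the last 3 ages with each other.

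The mature libraries held 3.54 to 6.41 CPM of Eomes and the embryonic libraries 16.4 to 32.6, a 5.04-fold higher embryonic mean. All 14 mature libraries were below all 6 embryonic libraries, which was the case or the reverse for 40.4% of all tested features. The log2 fold change was -2.11 (SE 0.11, limma adjusted p 3.8e-17). In whole tissue, fewer cells of a type and less RNA in each cell cannot be told apart. The growth of other cell types can also lower the share of reads left for a gene, and its part here was not tested. An antisense gene, Gm33460, overlaps the 3′ end of Eomes (chr9:118478212-118486132, plus strand) and was not analysed here.

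Adcyap1 was highest at E14 and had a lower mean at every later age. The E14 libraries held 14.0, 14.1 and 12.8 CPM. The E17 libraries held 8.08, 6.71 and 8.59 CPM. All E17 libraries were below all E14 libraries, but the difference did not pass the test (log2 fold change -0.74, SE 0.26, limma adjusted p 0.066). It passed in edgeR's quasi-likelihood fit of recovered reads (adjusted p 0.032), with median-of-ratios scaling (0.046), in a fit of E14 and E17 alone (0.0030) and without P60 replicate 2 (0.025) or P60 replicate 4 (0.046).

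The fall of Adcyap1 from E17 to P1 did pass. The P1 libraries held 5.27, 2.40, 3.17 and 4.97 CPM, all below E17, with a log2 fold change of -0.87 (SE 0.24, limma adjusted p 0.018). Leaving out E17 replicate 1, E17 replicate 3, P1 replicate 2 or P1 replicate 3 in turn put the adjusted p at 0.059 to 0.097. Later values ran lower by small amounts. The P6 libraries held 3.25, 3.24 and 3.86 CPM. At P15 they held 3.21, 3.03, 2.68 and 3.02 CPM, and at P28 2.13, 2.81, 1.89 and 1.76 CPM. At P60 the 6 libraries ran from 0.663 to 3.52 CPM with a median of 1.48. No step after P1 passed the test for Adcyap1, although all P15 libraries lay below all P6 libraries.

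The order of the Adcyap1 means was that of age, from 13.7 ± 0.7 CPM (SD, n = 3) at E14 through 7.79 at E17, 3.95 at P1, 3.45 at P6, 2.99 at P15 and 2.15 at P28 to 1.68 ± 1.02 (SD, n = 6) at P60. P1 and P6 overlapped, as did P15 with P28 and P28 with P60. The mature libraries held 0.663 to 3.52 CPM and the embryonic libraries 6.71 to 14.1, a 4.72-fold higher embryonic mean without overlap. The log2 fold change was -1.84 (SE 0.16, limma adjusted p 3.3e-12). Mature and embryonic libraries lay apart, in either direction, for 40.4% of all tested features.

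Opn3 fell once, between P1 and P6. The E14 libraries held 2.7, 2.95 and 2.63 CPM. The E17 libraries held 2.15, 4.5 and 3.73 CPM. The P1 libraries held 2.33, 2.27, 2.83 and 2.96 CPM. These first 3 ages overlapped with each other. At P6 the values were 0.989, 1.30 and 0.276 CPM, all below P1, with a log2 fold change of -0.99 (SE 0.26, limma adjusted p 0.0023).

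From P6 on, Opn3 stayed near 1 CPM or lower. P15 held 0.402, 0.790, 0.852 and 1.24 CPM, and P28 held 1.07, 1.12, 0.947 and 0.251 CPM. At P60 the libraries ran from 0, with no read in replicate 5, to 1.57 CPM, with a median of 0.558. These 4 ages overlapped and none of their steps passed the test. In the order of means E17 (3.46), E14 (2.76) and P1 (2.6) were followed by P6 (0.854), P28 (0.847), P15 (0.820) and P60 (0.654), and P1 and P6 were the only neighbours without overlap. All 14 mature libraries (0 to 1.57 CPM) were below all 6 embryonic ones (2.15 to 4.5), with a 4.02-fold higher embryonic mean. Such a separation, in either direction, was found for 40.4% of all tested features. The log2 fold change of Opn3 was -1.23 (SE 0.17, limma adjusted p 7.2e-08).

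Part of the Opn3 exon sequence also belongs to another gene, and how reads there were assigned is not given in the sources used here. Opn3 (chr1:175662421-175692776, minus strand) and Chml, a Rab escort protein gene on the same strand, share 461 of the 1913 exon bases of Opn3, or 24.1%, all in Opn3 exon 1 (chr1:175692170-175692776). The chromophore site shown above lies outside it. Chml, named here for this overlap, had 18.1 to 28.7 times the CPM of Opn3 at the 7 ages, a ratio of reads that is not corrected for length. Its level was 59.6 to 82.8 CPM in embryonic and 9.16 to 23.8 CPM in mature libraries, a 3.86-fold higher embryonic mean (log2 fold change -1.92, SE 0.13, limma adjusted p 9.8e-15), and it too fell between P1 and P6 (-1.45, SE 0.20, limma adjusted p 4.8e-07). Over the 27 libraries of 7 ages, log2(CPM + 1) of both genes had a Pearson r of 0.816, and both genes changed with age. The part of shared reads in the Opn3 value was not tested.

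**Figure D2:**
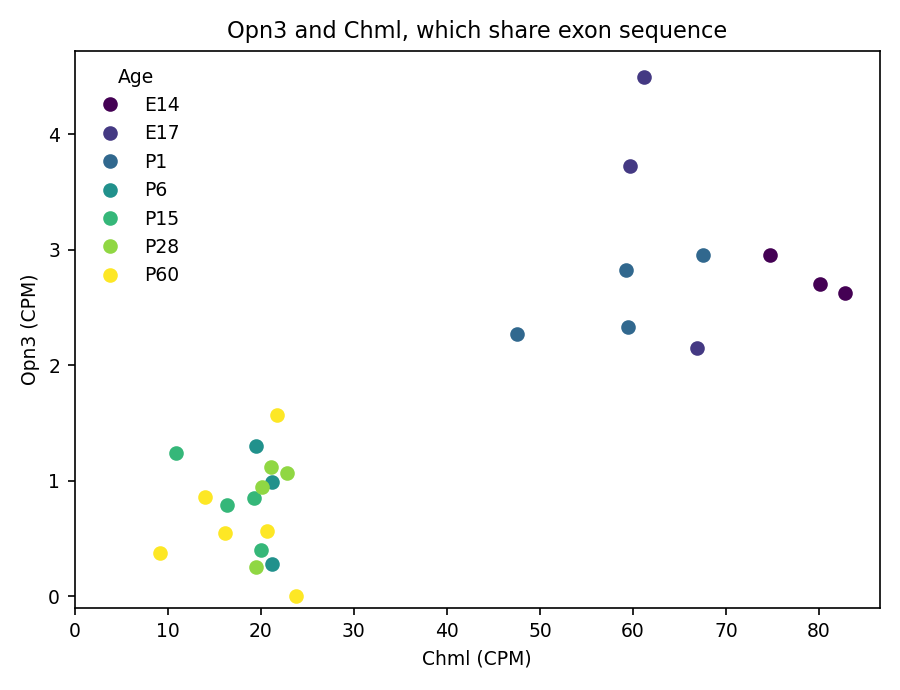
CPM of Opn3 (y axis) against CPM of Chml (x axis), both from 0, with 1 point per library colored by age. Embryonic and P1 libraries lay at the upper right (Chml 47.5 CPM or more) and all later libraries at the lower left (Chml 23.8 CPM or less), for both genes.

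Opn5 (chr17:42556783-42611395, minus strand) could not be followed at this depth. It had 35 reads over all libraries, none in 10 of them and at most 5, in P15 replicate 3 (0.608 CPM). At P1, 0 reads were found in all 4 libraries, and the summed depth put the upper 95% Poisson limit at 0.111 CPM. At the other ages the summed reads came to 0.0848 to 0.229 CPM, with intervals that overlapped each other. The E17 libraries held 1, 3 and 2 reads and the P1 libraries none, but both ages were at or under the floor, and no fold is given. Opn5 was tested only when the filter on low values was dropped, and then passed in none of the comparisons (limma adjusted p 0.53 over the 7 ages, 0.90 for mature against embryonic and 0.44 to 1 for the steps). A change with age was not detectable at this depth.

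**Figure D3:**
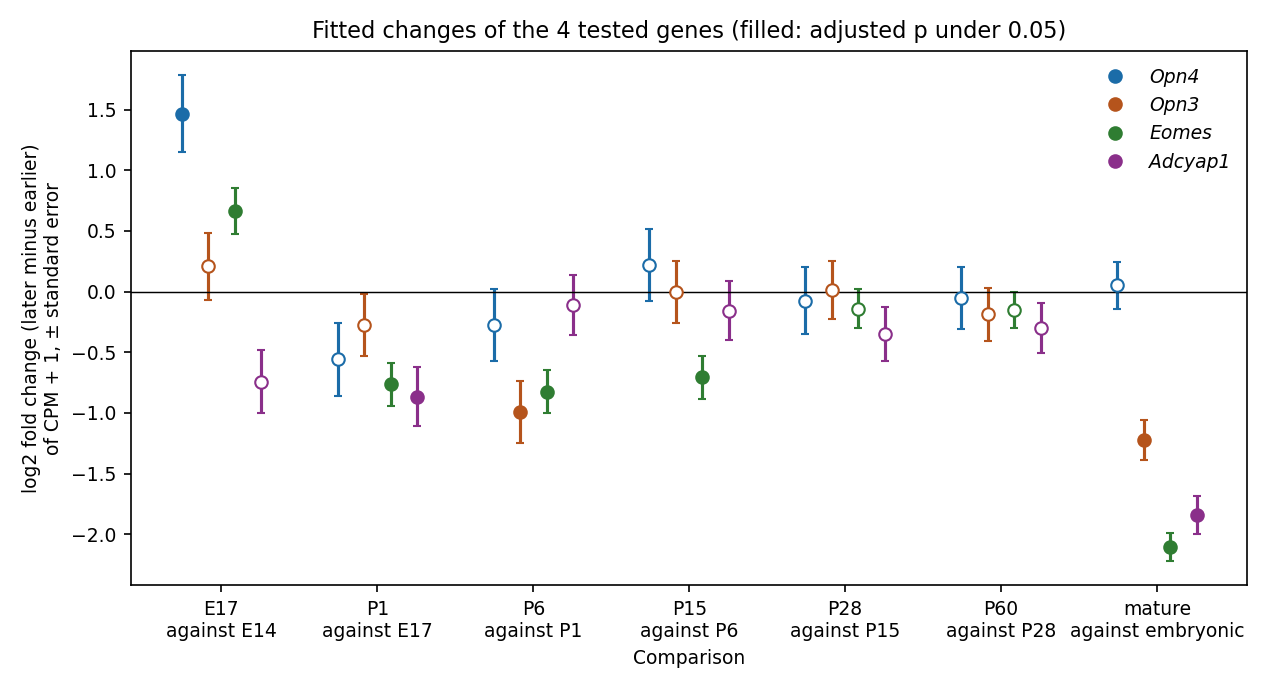
Log2 fold changes of CPM + 1 with their standard errors (y axis) for the 4 tested genes at each step between neighbouring ages and for mature against embryonic retina (x axis). Filled points passed an adjusted p of 0.05. Opn4 rose at the first step only, Eomes rose once and then fell 3 times, and no point was filled for P28 against P15 or P60 against P28.

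Counted by step, 2 of the 4 tested genes changed from E14 to E17 (both up), beside 10.6% of all tested features, and 2 from E17 to P1 (both down), beside 9.21%. From P1 to P6 it was 2 (both down), beside 38.3% of all features, and from P6 to P15 1 (down), beside 33.4%, so that the shares at these later steps lay near the background. From P15 to P28, limma called 0 of the 4, none at an unadjusted p under 0.05 and none with edgeR, and 2.72% of all tested features changed. From P28 to P60 limma also called 0 of the 4, again none at an unadjusted p under 0.05 or with edgeR, beside 12.9% of all features. For mature against embryonic retina 3 of the 4 fell and 0 rose, beside 75.4% of all features that changed, 40.4% lower and 35.0% higher. The count of 3 of 4 is close to that background. The median log2 fold change of the 4 genes was -1.53 and that of all features -0.07.

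To compare levels within the set, CPM was divided by the exon length of the annotation, giving CPM per kilobase. At E17 Eomes stood at 7.73 ± 0.14 (SD, n = 3), Adcyap1 at 2.06 ± 0.26, Opn3 at 1.81 ± 0.63, Opn4 at 0.784 ± 0.297 and Opn5 at 0.10 ± 0.043. Adcyap1 and Opn3 overlapped there, and the other neighbours in this order did not. At P60 Eomes stood at 1.11 ± 0.26 (SD, n = 6), Adcyap1 at 0.444 ± 0.270, Opn4 at 0.375 ± 0.373, Opn3 at 0.342 ± 0.278 and Opn5 at 0.0993 ± 0.1002, and all neighbours overlapped. For scale, the short-wave cone opsin Opn1sw reached 54.5 CPM per kilobase at P60.

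Ganglion cell markers are the natural yardstick for Opn4, Eomes and Adcyap1, since whole retina mixes all its cell types. Of 8 such markers, 5 fell from embryonic to mature retina, 2 rose and 1 did not pass the test. Over all tested features 40.4% were lower and 35.0% higher, which is the background for the other lists below too. The transcription factor genes Pou4f2 (log2 fold change -3.36), Pou4f1 (-1.94) and Isl1 (-1.01), the RNA-binding protein gene Rbpms (-1.83) and the synuclein gene Sncg (-2.07) were lower. Thy1, a surface protein, was higher by 4.35 and the neurofilament gene Nefl by 0.15, and the glutamate transporter gene Slc17a6 was at 0.10 (limma adjusted p 0.37, but 0.035 with edgeR). The summed level of the 8 markers was 919 to 1218 CPM in the embryonic and 569 to 913 CPM in the mature libraries.

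Set against the mean log2(CPM + 1) of these markers in the same library, the 3 genes moved in different ways. Relative Opn4 was -6.06 to -5.91 at E14 and -5.04 to -4.31 at E17, and every later age had a median between -4.61 and -4.45. The rise from E14 to E17 was thus present against the markers too. From P1 on, the highest marker mean was 5.81, at P15. Even a library without Opn4 reads would then lie above the E14 range, so later ages could not return to it. Relative Eomes had medians of -1.72 at E14, -1.30 at E17, -1.39 at P1, -2.15 at P6, -3.0 at P15, -3.02 at P28 and -3.03 at P60. Relative Adcyap1 had a median of -2.29 at E14, -3.19 at E17 and -4.07 at P60. Mature minus embryonic, the relative level changed by 0.75 for Opn4, -1.40 for Eomes and -1.14 for Adcyap1. Opn4 itself changed by 0.05, while the mean of the markers was 6.29 in embryonic and 5.55 in mature libraries. The size of the relative change depends on the markers chosen. Without Thy1 the values were 1.48, -0.68 and -0.42, and without Pou4f2 they were 0.38, -1.78 and -1.52.

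**Figure D4:**
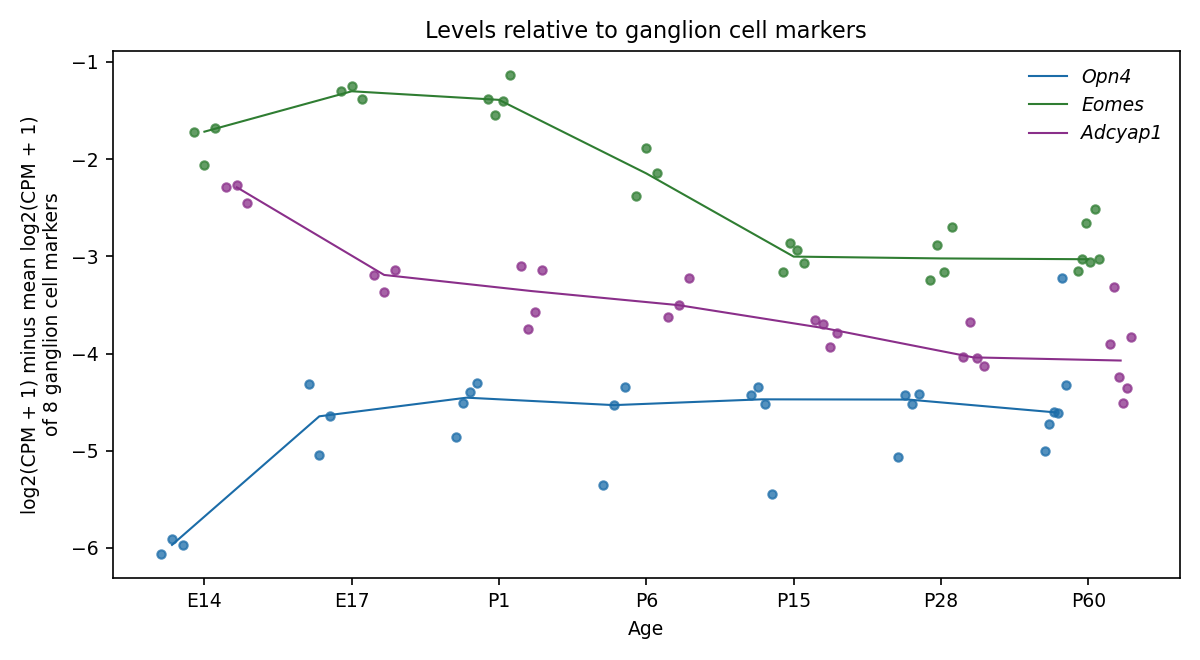
Log2(CPM + 1) of Opn4, Eomes and Adcyap1 minus the mean log2(CPM + 1) of 8 ganglion cell markers (y axis) by age (x axis). Points are libraries and lines join the medians. Opn4 rose from E14 to E17 and then stayed level, Eomes dropped between P1 and P15, and Adcyap1 went from a median of -2.29 at E14 to -3.19 at E17 and -4.07 at P60.

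Eomes is also known from T and NK cells. Of 6 markers of these cells only Cd8a was found by its symbol among the features, and the others could not be checked. Cd8a was at 0 to 2.12 CPM with a log2 fold change of -0.15 (limma adjusted p 0.35). The 4 amacrine cell markers were all higher by log2 fold change, mature minus embryonic, Tfap2a by 0.31, Tfap2b by 0.41, Gad1 by 4.42 and Slc6a9 by 3.62. Tfap2a and Tfap2b did not rise steadily. Tfap2a had means of 13.4 CPM at E14, 89.9 at E17, 166 at P1 and 37.2 at P60. Tfap2b had means of 76.8, 387, 548 and 182 CPM at the same ages. Photoreceptor markers fitted the tissue label, with summed levels of 4 genes from 81.9 to 184 CPM in embryonic and from 1612 to 1789 CPM in mature libraries and all 4 higher (Crx 3.01, Rcvrn 7.27, Nrl 6.86, Arr3 5.58).

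Other opsins mostly rose. Of 5, 4 were higher in mature retina and 1 lower, beside 35.0% and 40.4% of all tested features. The cone opsins Opn1mw and Opn1sw rose by 5.25 and 4.32 on the log2 scale. Rgr, an opsin of Müller glia and pigment epithelium that forms retinal in the light, rose by 3.18, from 0.825 CPM at E14 to 22.2 CPM at P15 and 16.4 CPM at P60. Rrh (peropsin) behaved otherwise, at 31.3 CPM at E14, 61.5 at E17, 62.8 at P1 and 24.9 at P60 (mature minus embryonic -0.79 on the log2 scale, SE 0.07, limma adjusted p 2.2e-11). The summed level of 7 pigment epithelium markers was higher in mature retina, as Rgr was and Rrh was not. It ran from 3.27 to 7.30 CPM in embryonic and from 11.7 to 65.7 CPM in mature libraries. Of the 6 tested, 4 rose (Rpe65 2.52, Ttr 3.59, Dct 1.32, Tyr 0.43) and Best1 and Tyrp1 did not pass, while Mlana was too low to test. Their part in the Rgr and Rrh values was not tested.

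The signalling cascade of melanopsin runs through Gq-type G proteins and phospholipase C β4 to TRPC channels. Of its 11 genes, 6 were higher, 2 lower and 3 not called in mature retina, with a median of 0.19. Over all tested features 75.4% changed, with a median of -0.07, so the share called was near the background. These are levels of whole retina, and the part of melanopsin cells in them was not tested. The phospholipase gene Plcb4 rose by 1.66, and held 77.5 ± 5.9 CPM (SD, n = 3) in E14 libraries and 262 ± 18 CPM (SD, n = 6) in those of P60. The channel genes Trpc6 (2.99) and Trpc7 (1.19) rose. Prkcz, an atypical protein kinase C gene, rose by 2.07 and the arrestin gene Arrb1 by 0.19. Gnaq, a Gq subunit gene, fell by 1.29 and Arrb2 by 0.67. Gna11 (-0.07), Gna14 (0.04) and the receptor kinase gene Grk2 (0.04) did not pass the test.

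Among 8 relatives, receptors and processing enzymes of PACAP, 6 were higher and 2 lower in mature retina, with a median of 1.10, whereas Adcyap1 itself fell. Of all tested features 35.0% were higher and 40.4% lower, with a median of -0.07. Vip, the closest relative of PACAP, had no read in any E14 library and 4.12 ± 0.19 CPM (SD, n = 4) at P15. The receptor genes Vipr1 and Vipr2 rose by 0.59 and 1.07. Adcyap1r1, the specific PACAP receptor gene, fell by 0.30 (SE 0.13, limma adjusted p 0.046), a call that was lost with a pseudocount of 0.1 (adjusted p 0.050), with median-of-ratios scaling (0.13) and with edgeR (0.18). The prohormone processing genes Pcsk1 (2.19), Pcsk2 (1.13) and Cpe (1.71) rose, and the amidating enzyme gene Pam fell by 0.23 (lost with edgeR, adjusted p 0.061).

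Of 6 other T-box genes, 4 fell, 1 rose and 1 did not pass, with a median of -1.14. Of all tested features 40.4% fell and 35.0% rose, with a median of -0.07. Tbx3 (-2.50), Tbx5 (-1.41) and Tbx2 (-0.91), known from the dorsal retina, were lower. Tbx20 was lower by 1.37 and, as Eomes, stood highest at E17, at 3.65 ± 0.52 (SD, n = 3) at E14, 14.5 ± 0.4 at E17, 7.81 ± 1.48 (SD, n = 4) at P1 and 1.57 ± 0.67 (SD, n = 6) at P60. Tbr1, known from a class of ganglion cells, rose by 0.56, and Tbx21 was at 0.28 (limma adjusted p 0.051, but 0.0080 with edgeR).

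**Figure D5:**
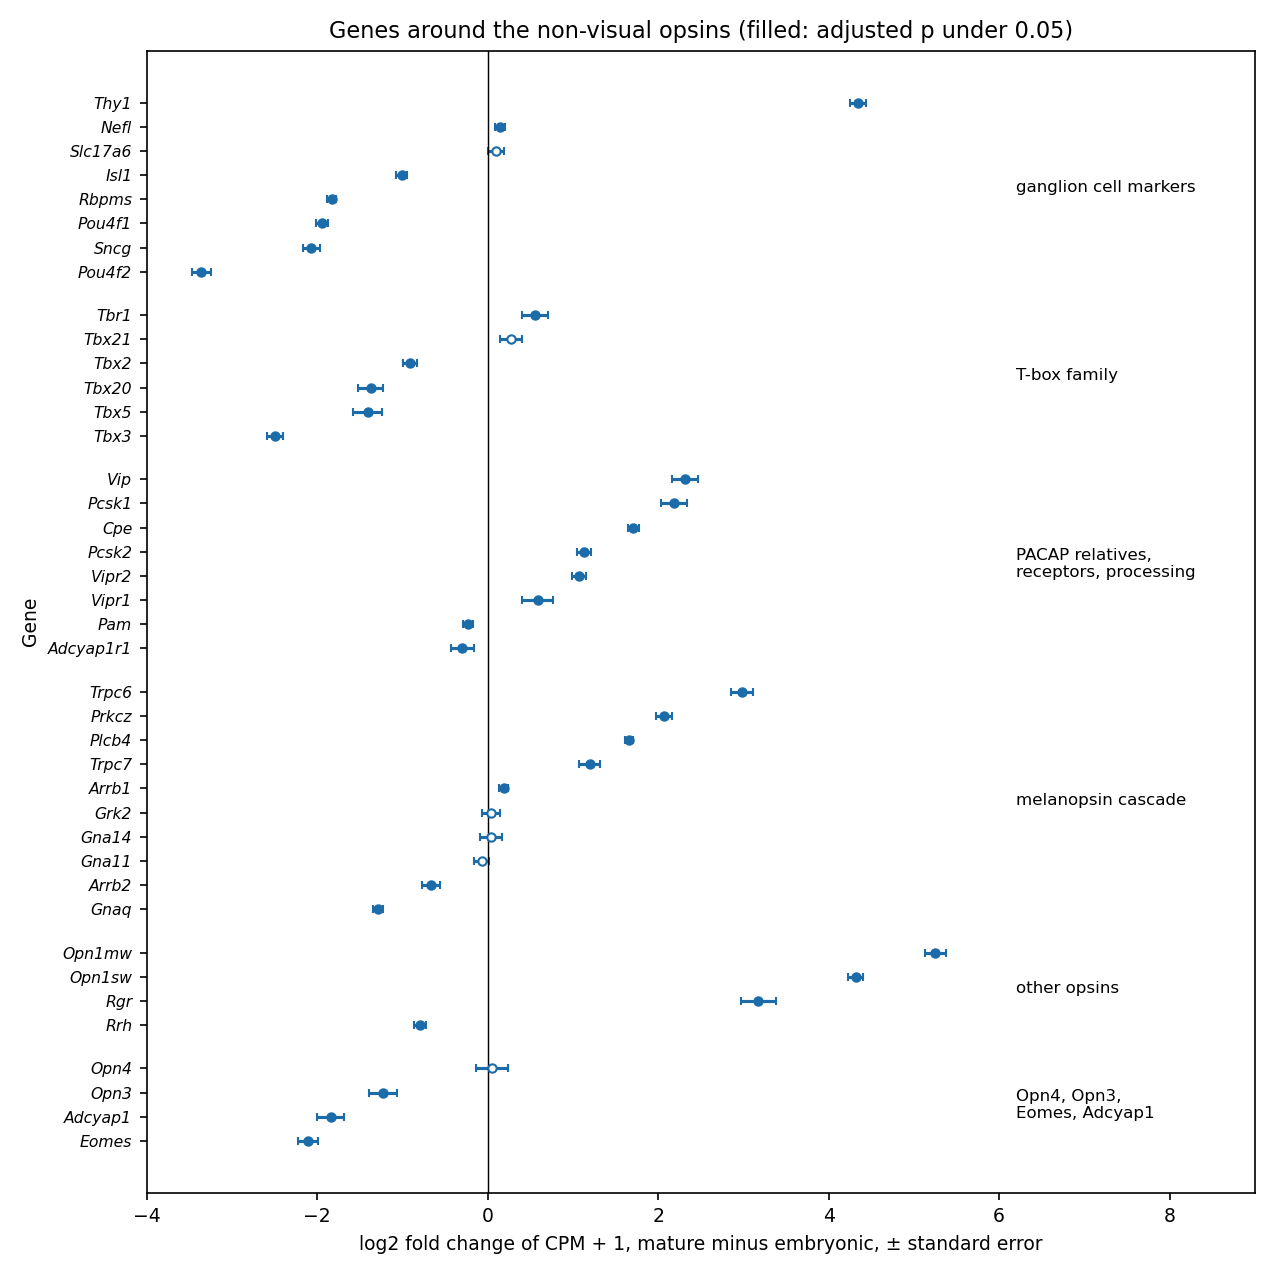
Log2 fold changes of CPM + 1, mature minus embryonic, with standard errors (x axis) for genes of 6 lists (y axis). Filled points passed an adjusted p of 0.05. Opn1mw lay at 5.25, right of the rest shown, and Eomes, Adcyap1 and Opn3 lay left of 0 while Opn4 lay at 0.05.

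The upstream sequences of Opn4 and Adcyap1 are shown because Eomes is a T-box factor and a T-box core (TCACAC or its complement GTGTGA) was searched in them. They are the 250 bases before the RefSeq start of each gene (GRCm38.p6, for Adcyap1 the first of its 2 starts), with the matched letters in capitals, at chr14:34600143-34600392 on the minus strand and chr17:93198767-93199016 on the plus strand.
Opn4: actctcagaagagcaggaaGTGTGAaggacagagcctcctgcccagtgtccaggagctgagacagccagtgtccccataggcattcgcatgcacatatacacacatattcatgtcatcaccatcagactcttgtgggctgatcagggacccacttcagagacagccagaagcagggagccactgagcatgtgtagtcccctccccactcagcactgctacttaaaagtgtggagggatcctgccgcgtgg
Adcyap1: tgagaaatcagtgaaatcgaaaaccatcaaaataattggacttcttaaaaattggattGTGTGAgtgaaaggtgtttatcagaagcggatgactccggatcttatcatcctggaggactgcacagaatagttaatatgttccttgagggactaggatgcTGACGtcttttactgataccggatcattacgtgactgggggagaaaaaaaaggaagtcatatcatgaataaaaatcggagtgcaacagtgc
The T-box letters began 231 bases before the start in Opn4 and 192 bases before it in Adcyap1, both as GTGTGA. They occurred, on either strand, in 12.3% of all 32851 such windows. No T-box match stood in the window before the second Adcyap1 start or in that of Eomes. In Adcyap1 a cAMP response core, TGACG, also stood 91 bases before the start, and 17.8% of windows hold it. The POU homeodomain core ATTAAT stood 124 bases before the start of Eomes and occurs in 4.39% of windows, and no motif of the 3 was found before Opn3. A match of so few letters is a description of the sequence and not of binding.

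Finally, the 27 libraries were searched for genes whose log2(CPM + 1) ran most like each of the 5, among 13579 genes with a mean of at least 5 CPM (13578 for Eomes). Libraries of an age share that age and a similar depth, and both differ between ages, so these correlations describe courses over development. Eomes was most like Plppr1 (Pearson r 0.968), Daam1 (0.966) and Ptprg (0.965). Adcyap1 was most like Elavl4 (0.960) and Elavl2 (0.954), and Opn3 most like Terf1 (0.914), 6720489N17Rik (0.911) and A630036H22Rik (0.900). For Opn4 the nearest were Kctd16 (0.703), Tgfb3 (0.685) and Astn2 (0.666). For Opn5 they reached only 0.555 (Lonp2), 0.541 (Rragd) and 0.528 (Paqr8), from 35 reads. Within the set, Eomes had an r of 0.806 with Opn3, 0.790 with Adcyap1 and 0.196 with Opn4.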

How the data were processed

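RNA was prepared by the authors from whole retinas of C57BL/6J mice, with libraries from the SMARTer total RNA kit and STAR alignment to mm10 (GRCm38). The deposited values are CPM, each feature's reads relative to the library total. The annotation and the use of strand in counting are not given in the sources used here. Values were whole multiples of 1 read (100% within 0.1 read), and scaling totals were 7077781 to 11332323 reads per library. Counting error is all that the 95% intervals and the floor of 3 reads allow for.

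Grouping followed the age in the labels. Deposited CPM became log2(CPM + 1), a feature had to reach 1 CPM in 3 or more libraries, and limma 3.58.1 (R 4.3.3, mean-variance trend, 1 mean per age) took in the 27 libraries together. P-values are two-sided, adjusted by Benjamini-Hochberg across every tested feature, with 0.05 as the threshold. Alternatives were a pseudocount of 0.1, no filter, a filter at a mean of 10 CPM, median-of-ratios scaling, edgeR 4.0.16 (quasi-likelihood, TMM) on recovered reads, the replicate number as a block, summed repeated symbols, a fit of the compared ages only, and leaving out each library. Steps were tried on simulated data, with changes planted only in features of a higher mean level than Opn4, Opn3, Opn5 and Adcyap1. The simulation thus did not cover genes as low as these. Genes and lists were chosen with earlier results of these data known: the 5 genes, listed opsins, melanopsin cascade, PACAP and T-box genes and cell markers, and the 3 genes most like each. Chml was added after its overlap was seen. P-values set differences between age means against the spread between these libraries, most of them pools, and not against the spread between animals. Exon lengths came from GENCODE M21, which may differ from the authors' features, and upstream windows from RefSeq, held for 4 of the 5 genes (not Opn5). Some genes are counted in the lists but not reported singly here.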

Additional observations from a re-analysis of the deposited data

Results flagged for a closer look

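A library stood apart from the others of its age in 3 of the 19 groups of 4 or more libraries examined, where chance flags about 1 in 20 (0.95 expected). Opn4 was at 0.275 CPM (2 reads) in P15 replicate 4, below the other P15 libraries. Opn4 was at 3.30 CPM (24 reads) in P60 replicate 5, above the other P60 libraries. Opn5 was at 0.400 CPM in P28 replicate 1, which is 3 reads against 1 in each of the others.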

How the results depend on the processing

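Leaving out 1 library at a time, 3 of 4 tested genes always changed between mature and embryonic retina and all 4 over the 7 ages. In the main fit 75.4% and 83.0% of all tested features did so, and these counts are read beside those shares. The count was 1 to 3 for E17 against E14 and 1 to 2 for P1 against E17, beside 10.6% and 9.21% of all tested features in the main fit. It was 2 for P6 against P1 and 1 for P15 against P6, beside 38.3% and 33.4%, so that these later counts lay near the background. A filter at a mean of 10 CPM kept only Eomes, so that the count was 1 in each of mature against embryonic, E17 against E14, P1 against E17, P6 against P1 and over the 7 ages. A pseudocount of 0.1 left 1 call for P1 against E17, since Adcyap1 then had an adjusted p of 0.066. Relative to the ganglion cell markers, a pseudocount of 0.1 gave -1.74 for Eomes and -1.69 for Adcyap1. Leaving out Pou4f2 gave -1.78 and -1.52, and 0.38 for Opn4. Leaving out Thy1 gave -0.68 and -0.42, and 1.48 for Opn4. Directions turned only where nothing was called. Opn4 mature against embryonic was -0.030 with the replicate block and -0.055 to 0.87 over all alternatives (adjusted p 0.078 to 0.93). Opn3 for P15 against P6 was 0.065 with a pseudocount of 0.1, 0.026 with median-of-ratios scaling and 0.014 with the replicate block, and -0.029 for P28 against P15 with a pseudocount of 0.1. Opn4 for P60 against P28 was 0.14 with edgeR, with or without E14 replicate 1, a setting added after seeing the data. Without single libraries, the log2 fold change of Opn4 ranged from -0.030 to 0.46 for P15 against P6, from -0.32 to 0.057 for P28 against P15, from -0.28 to 0.071 for P60 against P28 and from -0.055 to 0.14 for mature against embryonic. That of Opn3 ranged from -0.25 to 0.17 for P15 against P6 and from -0.11 to 0.19 for P28 against P15, and that of Adcyap1 from -0.28 to 0.018 for P6 against P1. The cause was not tested. The replicate block kept every count of calls, and same-numbered libraries of different ages share only a number (r of their deviations -0.129 to 0.167). Of 1124 values for single genes under alternatives, 1086 kept direction and side of the threshold. Many of them leave out a library of an age not compared, which cannot move the fold change. The test over the 7 ages has no direction to keep. EdgeR moved the median of all features by 0.10, from -0.07 to 0.04. Depth limits Opn4, Opn3 and Opn5 most, at 1 to 51 reads a library where any were found.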
